A study of Mus musculus with 6 samples.

Results

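The aldo-keto reductases described here are the 10 genes AKR1C1, AKR1C2, AKR1C3, AKR1B1, AKR1B10, AKR1A1, AKR1E2, AKR7A2, AKR7A3 and AKR7L, taken by gene symbol from a count table of 31456 gene rows. All 10 had a row, and all 10 were among the 16605 genes left by a filter on low counts. They were measured by bulk RNA sequencing in 3 libraries of parental HCT116 cells, a line established from a human colorectal carcinoma, and 3 libraries of a resistant form of the line. The study asked which genes confer resistance to oxaliplatin, a platinum drug that forms DNA adducts. The labels give no dose, exposure time or derivation of the resistant cells, and they do not say whether libraries came from separate cultures. The p-values therefore measure the spread between these libraries, which may be technical, and a difference between the forms cannot be assigned to resistance. The labels name mouse as the organism, whereas the tables pair human Ensembl identifiers with human symbols.

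Aldo-keto reductases are soluble enzymes that use NADPH to reduce aldehydes and ketones to alcohols. AKR1C enzymes act on steroids and prostaglandins, AKR1B1 is aldose reductase, AKR1B10 reduces retinal and lipid aldehydes, and AKR7A enzymes reduce dialdehydes and succinic semialdehyde. AKR1C genes and AKR1B10 are known to be induced by NRF2, which drives transcription under oxidative stress. The transcripts of the AKR1C genes are similar in sequence, to differing degrees between pairs, so the division of reads between them is uncertain. The same holds between AKR1B10 and AKR1B15, and among the AKR7A genes and AKR7L.

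The libraries held 20246878 to 32138423 counts, so 3 counts, the floor used for detection, were 0.0975 to 0.153 CPM, the unit of depth-scaled counts (TMM factors) used below. Floors and intervals cover counting error only. Parental replicate 2 stood apart from the other parental libraries. Its pairs had a mean chi-square per gene of 10.4 and 10.1, where counting noise gives about 1. The remaining parental pair had 1.96 and the resistant pairs 2.58 to 4.21. No replicate pair agreed within sampling noise. The epithelial genes EPCAM, KRT8, KRT18 and CDH1 had 42.9 to 1387 CPM in the parental mean, while VIL1, the gene of the brush border protein villin, had 0 to 4 counts per library. The leukocyte genes PTPRC and CD3E had 0 to 2 counts. EPCAM, KRT8 and KRT18 fell 1.16-fold, 1.13-fold and 1.22-fold in the resistant cells and CDH1 rose 1.17-fold (edgeR adjusted p = 0.00141, 0.0281, 0.00188 and 0.00251). COL1A1 and CD68, listed as markers of fibroblasts and macrophages, had means of 24.3 and 12.6 CPM in the parental and 41.7 and 16.4 in the resistant libraries, while COL1A2 and DCN had 0 to 2 counts. COL3A1, a further fibroblast marker, had 1, 1 and 0 parental and 5, 11 and 9 resistant counts, so every resistant library lay above every parental one. The part of these differences in the results for the family was not tested. In bulk libraries, fewer expressing cells and less RNA per cell cannot be told apart.

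Of the 10 members 4 were higher in the resistant cells and 1 was lower (quasi-likelihood test of edgeR, adjusted p below 0.05). The genes that rose were AKR1C3 (6.31-fold), AKR1B10 (3.93-fold), AKR1C1 (2.48-fold) and AKR1B1 (2.0-fold), and AKR1A1 fell 1.21-fold. The background was dense. Of all tested genes 27.3% were called higher and 26.5% lower, 53.8% in all, so 5 calls among 10 members is close to the share of the whole table. With library sizes alone as the scaling, 65.4% of all calls were higher, against 50.8% with TMM, and the members' calls were again 4 higher and 1 lower. Every resistant library lay above every parental library for 4 of the 10 members, the genes that rose, against 31.3% of all tested genes. The groups were separated in the other direction for 1 of the 10, AKR1A1, against 29.9% of all tested genes. The median log2 fold change was 0.48 over the members and 0.02 over all tested genes.

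**Figure D1:**
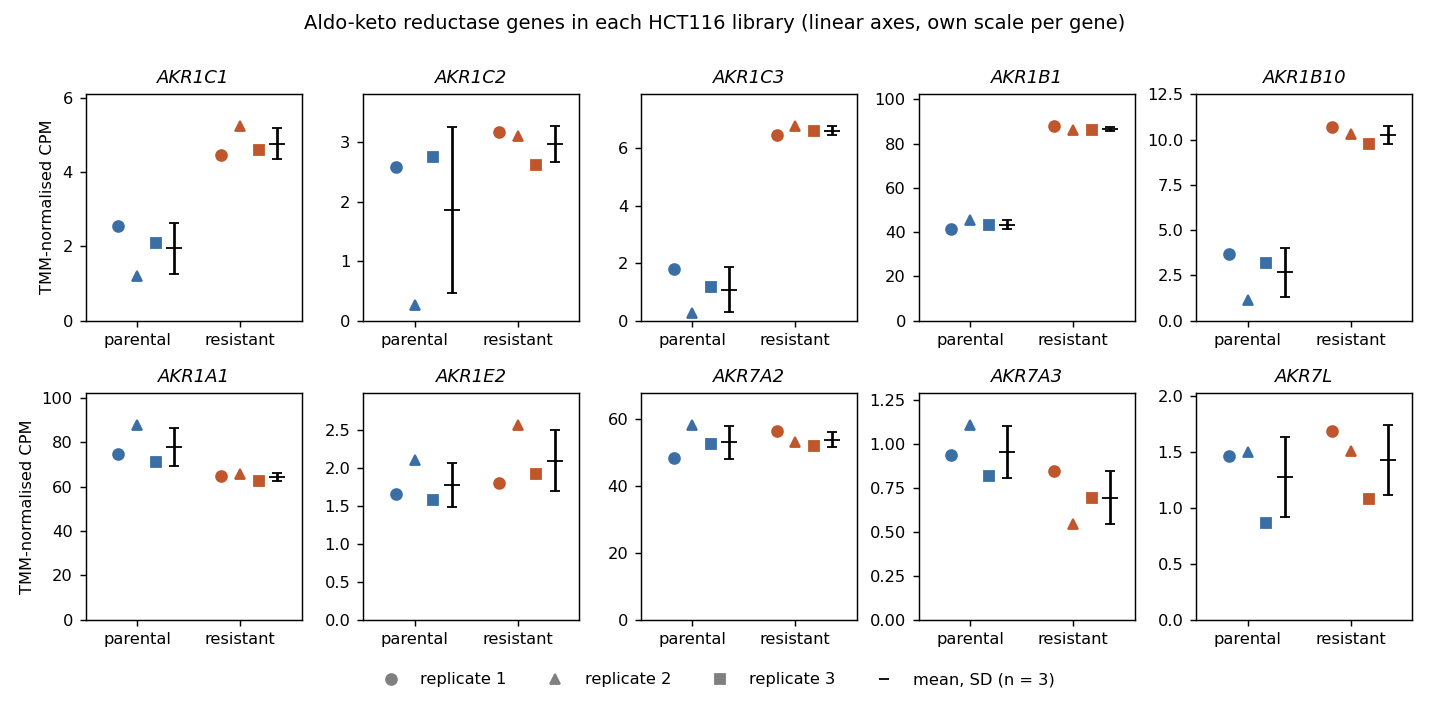
TMM-normalised CPM of each member in each library, on linear axes that start at 0 with a scale of their own per gene; points are libraries by replicate, and the black mark is the mean with its SD (n = 3). Parental replicate 2 is the lowest point for AKR1C1, AKR1C2, AKR1C3 and AKR1B10 and the highest parental point for the other 6 genes.

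AKR1C3 (ENSG00000196139.14), which reduces androgen precursors and prostaglandins, had 48, 8 and 23 counts in parental replicates 1, 2 and 3 and 161, 198 and 171 counts in the resistant replicates. As CPM these were 1.80, 0.260 and 1.17 against 6.47, 6.77 and 6.59. The resistant libraries lay close together and well above all parental ones, while the parental libraries varied widely among themselves. In edgeR the fitted log2 fold change of AKR1C3 was 2.66 ± 0.49 (SE; adjusted p = 0.00533). Without parental replicate 2 it was 2.11, and without parental replicate 1 it was 3.36.

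AKR1C1 (ENSG00000187134.14), a reductase of progesterone and other steroids that is named in the title of the study, had 68, 37 and 41 parental counts and 111, 153 and 119 resistant counts. In CPM, its parental levels were 2.56, 1.20 and 2.09 and its resistant levels 4.46, 5.23 and 4.59. In CPM the gap between the groups was wider than the spread within either. In FPKM the AKR1C1 levels were 2.32, 0.46 and 2.23 in the parental and 3.59, 4.34 and 4.51 in the resistant libraries. There the groups were separated, but the gap was narrower than the parental spread. The edgeR fit gave a log2 fold change of 1.31 ± 0.22 (SE) with an adjusted p of 0.000563, and 1.02 without parental replicate 2.

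AKR1C2 (ENSG00000151632.17), which inactivates dihydrotestosterone, had 69, 8 and 54 parental counts and 79, 91 and 68 resistant counts. Its CPM were 2.59, 0.260 and 2.75 in the parental and 3.17, 3.11 and 2.62 in the resistant libraries. The groups overlapped, since parental replicate 3 lay above resistant replicate 3. AKR1C2 had a log2 fold change of 0.73 ± 0.73 (SE) in edgeR, a 95% interval of -1.19 to 2.65 and an adjusted p of 0.455. It was 0.16 without parental replicate 2, so the size of the AKR1C2 difference rested on that library.

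The sum over the 3 AKR1C genes does not depend on how the counted reads were divided between them. Whether reads shared between genes were counted is not known here, so the sum may miss some. The summed parental levels were 6.95, 1.72 and 6.01 CPM and the resistant levels 14.1, 15.1 and 13.8 CPM. The ratio of the means was 2.93, and 2.21 without parental replicate 2. The resistant sum lay above the parental sum in every library either way.

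AKR1B10 (ENSG00000198074.10) had 98, 35 and 63 parental counts and 267, 301 and 253 resistant counts, or 3.68, 1.14 and 3.21 CPM against 10.7, 10.3 and 9.75 CPM. It showed the same order as the AKR1C genes, with parental replicate 2 lowest and the resistant libraries tightly grouped. For AKR1B10 edgeR gave a log2 fold change of 1.98 ± 0.37 (SE) and an adjusted p of 0.00522, and 1.56 without parental replicate 2. AKR1B15, its close paralog, had 2, 11 and 2 parental and 2, 9 and 4 resistant counts and was too low for the test.

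AKR1B1 (ENSG00000085662.14), the first enzyme of the polyol pathway from glucose to sorbitol, was the most even of the members that rose. Its CPM were 41.3, 45.5 and 43.1 in the parental and 87.9, 86.1 and 86.0 in the resistant libraries. Here parental replicate 2 was the highest parental library, not the lowest. In edgeR its log2 fold change of 1.0 ± 0.05 (SE) had an adjusted p of 1.76e-08, and the value ranged from 0.96 to 1.09 over 15 alternative settings. Of the increase of 47.8 CPM in the summed family, from 186 ± 11.3 to 233 ± 5.45 CPM (SD, n = 3), most was AKR1B1. The other 9 genes together summed to 142 ± 9.49 CPM in parental and 147 ± 4.69 in resistant cells (SD, n = 3), and the groups overlapped.

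AKR1A1 (ENSG00000117448.13), the aldehyde reductase that also reduces glucuronate, fell. Its parental levels were 74.7, 87.6 and 71.0 CPM, and its resistant levels 64.7, 65.7 and 62.4 CPM. All resistant libraries lay below all parental ones, with parental replicate 2 the highest. AKR1A1 had a log2 fold change of -0.28 ± 0.07 (SE) in edgeR, with an adjusted p of 0.00665. It was -0.18 without parental replicate 2, and on the deposited FPKM values the limma adjusted p was 0.0918 and 0.0897 with pseudocounts of 1 and 0.1, over a range of 1.56e-06 to 0.0918 for all alternatives.

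The remaining members did not pass the threshold. AKR7A2 (ENSG00000053371.12), which reduces succinic semialdehyde, ranged from 48.3 to 58.0 CPM over parental and from 51.8 to 56.2 over resistant libraries. Its log2 fold change of 0.02 had a 95% interval of -0.13 to 0.17 (edgeR adjusted p = 0.832), so a change of the size seen in AKR1B1 lies outside the interval. AKR1E2, a reductase of the sugar derivative anhydrofructose, had 31 to 65 parental and 45 to 75 resistant counts, with a log2 fold change of 0.23 (95% interval -0.20 to 0.66; edgeR adjusted p = 0.351). AKR7A3, an aflatoxin aldehyde reductase, had 16 to 34 counts in the parental and 16 to 21 in the resistant libraries. The AKR7A3 log2 fold change was -0.48 (95% interval -1.04 to 0.08; edgeR adjusted p = 0.134). AKR7L, its neighbour in sequence, had 17 to 46 parental and 28 to 44 resistant counts, with a log2 fold change of 0.13 (95% interval -0.42 to 0.67; edgeR adjusted p = 0.691). The counts of AKR1E2, AKR7A3 and AKR7L were low, and the ends of their intervals reached 0.66, -1.04 and 0.67.

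Other aldo-keto reductase rows were low or even. AKR1D1 had 0 or 1 counts, the pseudogene AKR1C7P 0 to 4 and AKR7A2P1 3 to 8 counts per library. KCNAB1, KCNAB2 and KCNAB3, which encode potassium channel subunits with an aldo-keto reductase fold, had log2 fold changes of -0.09, -0.07 and -0.16, with edgeR adjusted p-values of 0.770, 0.507 and 0.419. AKR1C4, AKR1C8, AKR1C5P, AKR1C6P and AKR1B10P1 had no row under these symbols.

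The division of counts within the family shifted. AKR1A1 held 41.7%, 44.1% and 39.7% of the family's counts in the parental libraries and 27.2%, 28.0% and 27.4% in the resistant libraries. AKR1B1 held 23.1%, 22.9% and 24.1% and then 36.9%, 36.6% and 37.8%. The leading gene by counts was thus AKR1A1 in every parental and AKR1B1 in every resistant library. AKR7A2 went from a mean of 28.5% to 23.0%, with a level in CPM that did not pass the test. AKR1B10 went from 1.47% to 4.39%, AKR1C3 from 0.597% to 2.83% and AKR1C1 from 1.07% to 2.04%, while AKR1C2 had 1.04% and 1.27% with overlapping groups. The 3 libraries a group allow no exact permutation p below 0.10. That smallest p was reached by 10 of the 15 shares tested, and their two-sided p adjusted over the 15 was 0.15.

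Among the AKR1C genes, AKR1C3 held 25.9%, 15.1% and 19.5% of their summed counts in the parental libraries and 45.9%, 44.8% and 47.8% in the resistant libraries. The largest parental share had an exact Clopper-Pearson 95% interval of 19.8% to 32.9%, and the smallest resistant share 40.1% to 49.6%, so the groups differed beyond counting error. AKR1C1 held 36.8% and 34.7% in parental replicates 1 and 3 and 31.6% to 34.6% in resistant libraries. In parental replicate 2 it held 69.8%, from 37 of 53 counts (95% interval 55.7% to 81.7%). For AKR1C2 the parental shares were 37.3%, 15.1% and 45.8%, and the resistant shares 19.0% to 22.5%. By counts the groups overlapped for AKR1C2, since parental replicate 2 lay below every resistant library (exact two-sided permutation p = 0.40). By FPKM the AKR1C2 shares were 41.8%, 44.1% and 53.8% in the parental and 30.2%, 28.1% and 23.5% in the resistant libraries. Every resistant library then lay below every parental one (exact two-sided permutation p = 0.10). The AKR1C1 share of counts differed by 13.9 percentage points between the group means and by 2.59 without parental replicate 2. The log2 ratio of AKR1C3 to AKR1C1, which no scaling of libraries affects, was -0.50, -2.14 and -0.82 in the parental and 0.53, 0.37 and 0.52 in the resistant libraries. AKR1C3 thus passed from below AKR1C1 to above it in counts. The difference of 1.63 had an exact two-sided permutation p of 0.10 (n = 3 against 3; 0.125 adjusted over the 5 ratios tested), the smallest the design allows. The ratio of AKR1B1 to AKR1A1 also separated the groups, at -0.94 to -0.72 and 0.39 to 0.46 on the log2 scale, with the same p. So did the log2 ratios of AKR1B10 to AKR1B1 (difference 1.10) and of AKR7A3 to AKR7A2 (difference -0.48), each with that p. Only the ratio of AKR1C2 to AKR1C1 overlapped between the groups.

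**Figure D2:**
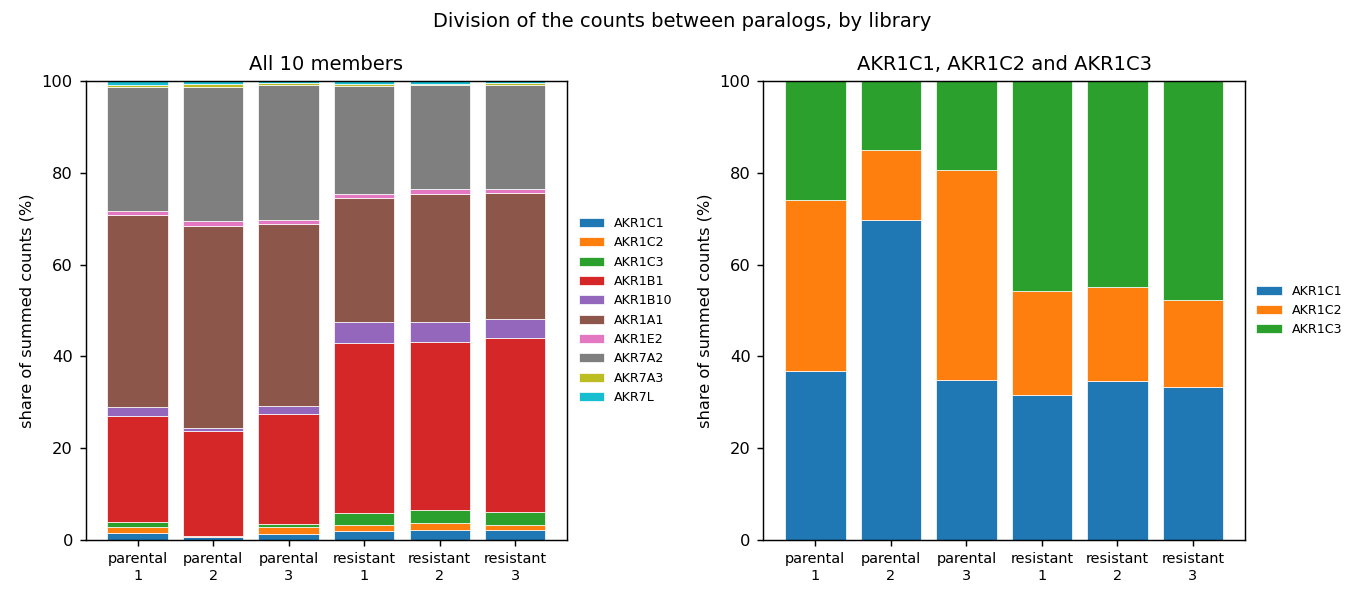
Stacked bars of the share of summed counts (%, from 0 to 100) held by each gene in each library, for the 10 members (left) and for AKR1C1, AKR1C2 and AKR1C3 alone (right). AKR1B1 holds 36.6% to 37.8% of the family in the resistant libraries, and parental replicate 2 has an AKR1C1 share of 69.8%, unlike any other library.

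Parental replicate 2 was low for 4 members. Set against the mean of the other parental libraries, AKR1C2 was 9.74-fold lower there in CPM, AKR1C3 5.34-fold, AKR1B10 3.0-fold and AKR1C1 1.91-fold. The contrast between AKR1C1 and AKR1C2 depended on the measure and was narrower in FPKM. In parental replicates 1, 2 and 3 AKR1C1 had 2.32, 0.46 and 2.23 FPKM and AKR1C2 3.17, 0.6 and 4.22. Of all 16605 tested genes 1.41% were more than 2-fold lower in CPM in parental replicate 2 and 0.410% more than 4-fold. Of the 2609 genes at 1 to 5 CPM in parental replicates 1 and 3 these shares were 2.03% and 0.805%. The other 6 members were higher there, by 0.11 to 0.39 on the log2 scale. Of 24 tested NRF2 targets outside the family 0 were more than 2-fold lower there, and their median log2 difference was 0.06. The lowest of them was SLC7A11, the cystine transporter gene, at -0.35. With 1.41% of all tested genes that low, few or none of 24 would be counted at that rate. A part of NRF2 in the low values was not tested.

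A further gene of aldehyde metabolism was low in this library. ALDH1A1, which oxidises retinal to retinoic acid, had 123, 0 and 75 counts in the parental and 105, 86 and 114 counts in the resistant libraries. Parental replicate 2, the deepest library, was the only library without a read of it, and a count of 0 there allows up to 0.0975 CPM. Rows that had 0 counts in 1 library and at least 10 in each other library numbered 10 for parental replicate 2, among them ALDH1A1 and the pseudogenes LDHAP4, GCSHP5 and EIF4A1P10, against 1, 5, 5, 7 and 4 for the other libraries. Of these rows 8 had a symbol in parental replicate 2 and 1 to 3 elsewhere. The part of this difference between parental libraries in the AKR1C and AKR1B10 values was not tested. In CPM the resistant mean was 1.86-fold, 3.96-fold and 2.28-fold that of parental replicates 1, 2 and 3 for AKR1C1. For AKR1C3 it was 3.66-fold, 25.4-fold and 5.65-fold. For AKR1B10 these ratios were 2.79, 9.01 and 3.20, and for AKR1C2 1.15, 11.4 and 1.08. The direction was the same against each parental library for these 4 genes, but for AKR1C2 the size came from parental replicate 2.

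**Figure D3:**
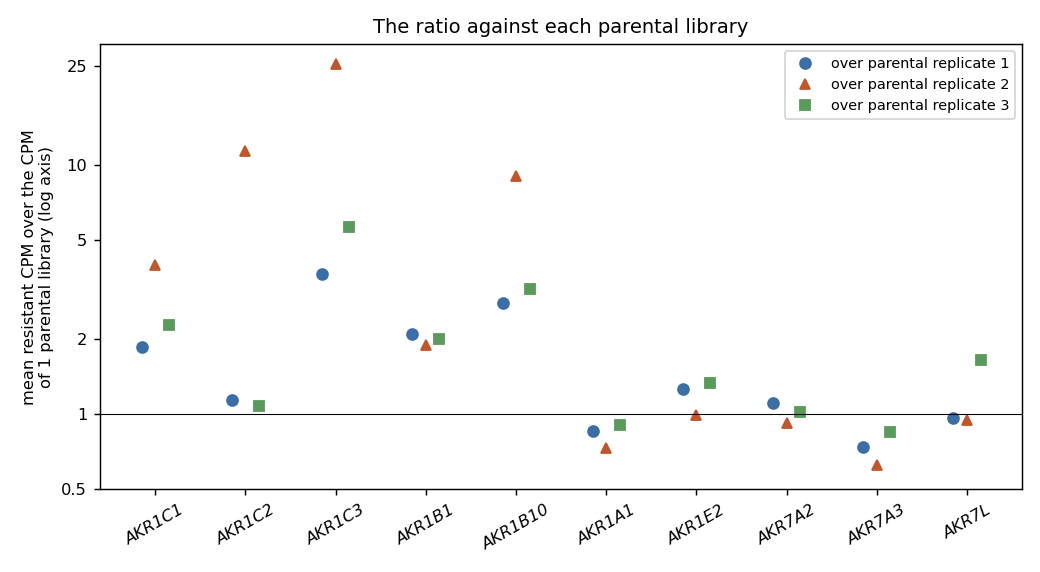
Mean resistant CPM of each member divided by its CPM in each single parental library, on a log axis; the line marks a ratio of 1. The ratios for AKR1B1 lie between 1.90 and 2.10, whereas those for AKR1C3 run from 3.66 to 25.4, with parental replicate 2 highest.

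Levels per transcript length were read from the second deposited table, taken as FPKM because its header names no unit. In the parental mean AKR1A1 led with 87.3 ± 9.53 FPKM, followed by AKR7A2 at 51.4 ± 4.26 and AKR1B1 at 49.6 ± 3.65 FPKM (SD, n = 3), the latter pair within their spread. AKR1C2, AKR1B10, AKR1E2, AKR1C1 and AKR1C3 followed at 2.66 to 1.27 FPKM, and AKR7A3 and AKR7L at 1.07 and 1.04 FPKM, with no neighbours in this order apart beyond their spread. The family thus split into 3 abundant and 7 scarce members in the parental cells. In the resistant mean the order was AKR1B1 (98.3 ± 1.18 FPKM), AKR1A1 (76.5 ± 0.873), AKR7A2 (54.9 ± 3.12), AKR1B10 (11.1 ± 0.359) and AKR1C3 (8.05 ± 0.127), each apart from the next beyond the SD. AKR1C2 at 4.58 ± 0.669 and AKR1C1 at 4.15 ± 0.490 FPKM lay within their spread, and AKR1E2, AKR7L and AKR7A3 had 2.56, 1.09 and 0.813 FPKM.

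The FPKM of AKR1C1 and AKR1C2 did not follow the counts in the same way in every library. FPKM divided by CPM of the total counts was 0.400 for AKR1C1 in parental replicate 2 and 0.777 to 1.10 in the other libraries. For AKR1C2 it was 2.41 in parental replicate 2 and 1.25 to 1.58 elsewhere, while for AKR1C3 it stayed between 1.16 and 1.23. The highest of these quotients was 2.76 times the lowest for AKR1C1 and 1.92 times for AKR1C2. Among 13907 tested genes with at least 20 counts in every library the median was 1.12 times, and 8.08% exceeded 1.5. By FPKM the AKR1C1 share of the AKR1C sum in parental replicate 2 was 33.8%, against 69.8% by counts, and the AKR1C2 share 44.1% against 15.1%. The share of AKR1C3 rose by 25.5 percentage points between the group means by FPKM and by 26.0 by counts. The AKR1C1 difference had a limma adjusted p of 0.0739 on log2 FPKM with a pseudocount of 0.1, where the alternatives together spanned 8.4e-13 to 0.0739.

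**Figure D4:**
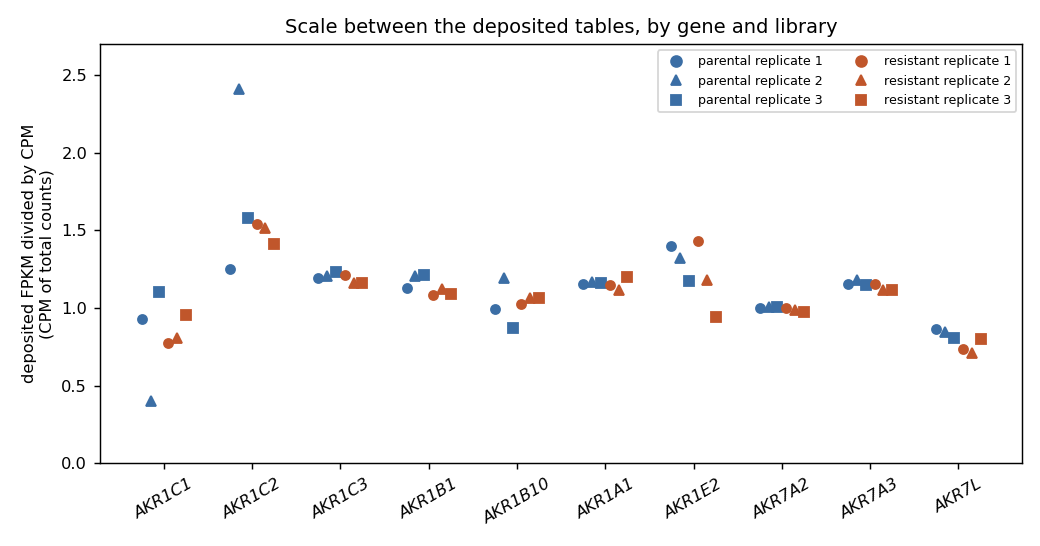
Deposited FPKM divided by CPM of the total counts for each member and library, on a linear axis that starts at 0. A single scale per gene would give level points, as for AKR7A2; parental replicate 2 lies apart at 0.400 for AKR1C1 and at 2.41 for AKR1C2.

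Set beside 17 other carbonyl and quinone reductases with a row, the family lost weight. The summed FPKM of the 10 members rose from 201 ± 11.7 to 262 ± 5.04 and that of the others from 1023 ± 48.2 to 2880 ± 31.0 (SD, n = 3). The family's share of the joint sum was 16.1% to 16.6% in the parental and 8.27% to 8.48% in the resistant libraries (exact two-sided permutation p = 0.10, the smallest possible). That loss rested on NQO1 and DHRS2. Without them the other reductases rose 1.28-fold in summed FPKM, against 1.30-fold for the family, so the family then lost no weight. NQO1, a quinone reductase, stood at 392 and 1465 FPKM and DHRS2, a mitochondrial and nuclear short-chain reductase, at 17.6 and 628 FPKM. AKR1A1 moved from rank 3 to rank 9 of the 27 genes by FPKM, AKR1B1 from 9 to 6, AKR1B10 from 19 to 17 and AKR1C3 from 23 to 19.

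Of 16 tested genes of that comparison list 9 rose and 2 fell, with a median log2 fold change of 0.38. Among all tested genes 27.3% were called higher and 26.5% lower, with a median of 0.02. PTGR1, which reduces prostaglandin and leukotriene enones, rose 3.93-fold, as did AKR1B10, from 34.7 ± 1.5 to 136 ± 5.53 CPM (SD, n = 3; edgeR adjusted p = 8.3e-11). CBR3, a carbonyl reductase of similar low level to AKR1C1, rose 2.24-fold from 36, 52 and 18 to 82, 91 and 70 counts (edgeR adjusted p = 0.000551). Its parental replicate 2 was the highest parental library, unlike that of AKR1C1. CBR1, the main cytosolic carbonyl reductase, had 0 to 2 counts in every library and was not tested. How the authors' counting treated genes that overlap CBR1 is not known here, so this value may not be its level. SPR, the sepiapterin reductase gene, fell 1.68-fold (edgeR adjusted p = 9.56e-07), and DCXR, which reduces xylulose, fell 1.12-fold with an edgeR adjusted p of 0.0469, which was above 0.05 under 10 of 15 alternatives (0.00607 to 0.387).

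**Figure D5:**
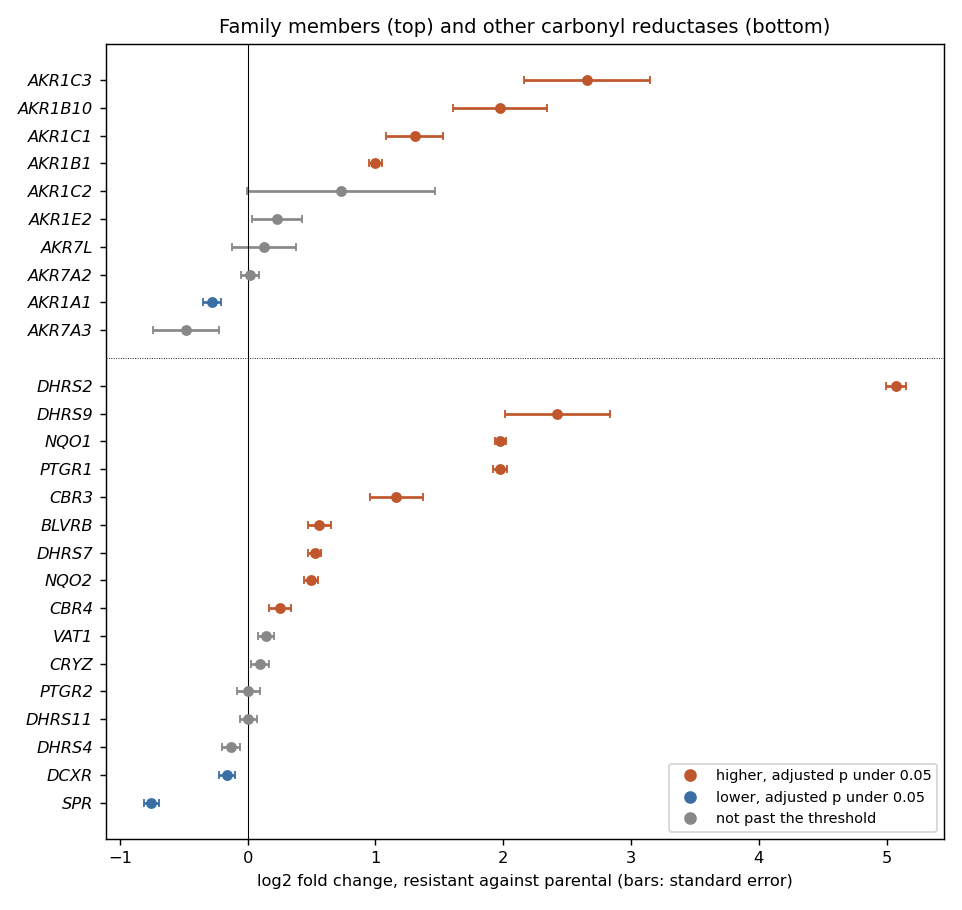
Log2 fold change of resistant against parental cells with its standard error (bars) for the 10 members (above the dotted line) and 16 other carbonyl reductases (below), coloured by call at an edgeR adjusted p under 0.05. AKR1C2 has the widest bar, at 0.73 ± 0.73, and AKR1B1 the narrowest of the members, at 1.0 ± 0.05.

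Enzymes that share substrates with the members moved in mixed directions. In the polyol and glucuronate list, around AKR1B1 and AKR1A1, 5 of 10 tested genes rose and 4 fell, with a median log2 fold change of 0.01. The shares of all tested genes were 27.3% higher and 26.5% lower. SORD, which converts the sorbitol made by AKR1B1 to fructose, fell 1.28-fold from 186 ± 1.47 to 145 ± 3.39 CPM (SD, n = 3; edgeR adjusted p = 2.28e-05), and KHK, the fructokinase gene, rose 1.5-fold (edgeR adjusted p = 0.000579). Over the alternatives 2 to 5 genes of this list were lower, with 2 under library sizes alone and without parental replicate 2 or any 1 resistant library. AKR1B1 thus rose while the gene of the next enzyme of its pathway fell.

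In the retinoid list, which bears on AKR1B10 and AKR1C3 as retinal reductases, 9 of 15 tested genes rose and 2 fell. The background for this and the following lists was 27.3% of all tested genes higher and 26.5% lower. DHRS3, a membrane-bound retinal reductase, rose 4.52-fold (edgeR adjusted p = 1.59e-10), ALDH1A3, a retinal dehydrogenase, rose 1.75-fold (edgeR adjusted p = 1.49e-08), and RDH11, a further retinal reductase, fell 1.40-fold (edgeR adjusted p = 4.25e-06). Genes of both the reducing and the oxidising direction were among those that rose. Steroid enzymes, the partners of the AKR1C genes, had 1 of 17 tested genes higher and 5 lower. HSD17B7, of estrogen and cholesterol synthesis, fell 2.48-fold and HSD11B2, which inactivates cortisol, fell 1.77-fold (edgeR adjusted p = 4.02e-08 and 7.82e-05). The 1 gene that rose was HSD17B4, 1.42-fold (edgeR adjusted p = 1.19e-06). Of the prostaglandin list, which also holds PTGR1 of the comparison list, 5 of 13 tested genes rose and 2 fell. HPGD, which oxidises prostaglandins, rose 2.61-fold and PTGS1, a cyclooxygenase, fell 1.49-fold (edgeR adjusted p = 0.000555 and 0.00206). In the list of small aldehydes, which includes the succinic semialdehyde partners of AKR7A2, 6 of 15 tested genes rose and 5 fell. ALDH5A1, the succinic semialdehyde dehydrogenase gene, rose 1.54-fold (edgeR adjusted p = 3.22e-06), beside an AKR7A2 level within its spread.

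Regulators known for this family were also read. NFE2L2, which encodes NRF2, rose 2.34-fold from 133 ± 3.61 to 312 ± 5.0 CPM (SD, n = 3; edgeR adjusted p = 7.22e-10). BACH1, a repressor at the same DNA elements, rose 1.57-fold (edgeR adjusted p = 4.34e-06). KEAP1, which targets NRF2 for degradation, had a log2 fold change of -0.08 ± 0.06 (SE; edgeR adjusted p = 0.268), of the opposite sign with library sizes alone. Of 7 tested regulators 4 rose and 2 fell. For this and the counts below, the background was 27.3% of all tested genes higher and 26.5% lower. Of 24 tested NRF2 targets outside the family 20 rose and 1 fell, with a median log2 fold change of 0.94. That list was chosen with earlier results of these libraries known and is not independent evidence. It also shares genes with the carbonyl reductase list, NQO1 and CBR3 among them. NFAT5, the osmotic stress factor that acts on AKR1B1, had 234 ± 18.8 and 256 ± 16.3 CPM (SD, n = 3), with a log2 fold change of 0.13 ± 0.06 (SE; edgeR adjusted p = 0.113, 0.0177 with library sizes alone, over a range of 0.0177 to 0.373). Of the 6 tested genes of the osmotic list, NFAT5 included, 3 rose, 1 fell and 2 did not pass. SLC6A6, the taurine transporter gene, rose 2.15-fold and SLC5A3, the inositol transporter gene, 1.34-fold, SGK1 rose 4.31-fold, and SLC38A2, an amino acid transporter gene, fell 3.12-fold (edgeR adjusted p = 1.29e-09, 2.52e-05, 1.08e-09 and 8.06e-10). HSPA4L, a heat shock family gene, had a log2 fold change of 0.06 (edgeR adjusted p = 0.466). These are mRNA levels, and neither protein nor enzyme activity was measured.

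Across the 6 libraries the log2 CPM of AKR1C1 ran most closely with AKR1C3 (Pearson r = 0.995) and AKR1B10 (0.992) among the members. AKR1B1 (0.86) and AKR1C2 (0.80) came next, and AKR1A1 (-0.94) and AKR7A3 (-0.83) ran opposite to it. These coefficients describe 6 points that share the group difference and the low value of parental replicate 2. Among 14094 other genes of at least 1 CPM 1680 had an r over 0.9. The 5 highest were ZNF12, ZNF281, LINC00173, ARID3A and AL391121.1, with r from 0.993 to 0.997. ZNF12, ZNF281 and ARID3A, genes of DNA-binding proteins, differed between the groups by 0.20, 0.19 and 0.16 on the log2 scale, far less than AKR1C1. AL391121.1 had parental levels of 0.489, 0 and 0.356 CPM and resistant levels of 2.09, 2.5 and 2.12 CPM, and was not detected in parental replicate 2.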

How the data were processed

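The authors deposited whole-number read counts per gene, without normalization, and a second table of non-whole values taken here as FPKM, since the deposited header names no unit. Per the labels' protocols, total RNA was converted to libraries by a SMARTER mRNA-Seq kit. GRCm38 and mm10 are the builds listed in the submitters' processing notes, although the identifiers are human. How reads were aligned, counted and assigned to strands is not given in the sources used here. No coordinates or sequences were used.

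Counts were tested with edgeR 4.0.16 in R 4.3.3 over all genes (TMM, filterByExpr, robust quasi-likelihood fit, two-sided, Benjamini-Hochberg adjustment, threshold 0.05), and checked on simulated data. The standard error is the log2 fold change divided by the square root of F. Ratios of members added 0.5 to each count. FPKM served for levels per length and, with limma 3.58.1 on log2 values, as alternatives. DESeq2 1.42.0 was a further alternative. Where a symbol had more than a single row, the row of highest total count was used. Groups came from the sample titles, and columns from the sample descriptions.

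Members and gene lists were chosen with earlier results of these data known. Named were all members, up to 4 genes per list with the smallest adjusted p and enzymes of the same reactions, NFE2L2, KEAP1, BACH1 and NFAT5, and the 5 genes whose log2 CPM followed AKR1C1 most closely. The comparison of parental replicate 2 with its group, the quotient of FPKM to CPM, ALDH1A1, SLC7A11 and the rows with 0 counts in a single library were added after values were seen.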

Additional observations from a re-analysis of the deposited data

How the results depend on the processing

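Over 15 alternatives to the edgeR fit, AKR1B1 and AKR1B10 stayed past the threshold in all, AKR1C1 and AKR1C3 in 14 and AKR1A1 in 13. The count of members higher was 4 in 13 of them and 3 in the others. No member was lower (0) on FPKM with either pseudocount. The carbonyl reductases that fell numbered 1 with library sizes alone, limma voom, at least 1 CPM in 3 libraries and FPKM with either pseudocount, and 1 to 2 with a library left out, against 2; the DCXR call was the unstable one. In the polyol and glucuronate list 4 genes fell, 2 with library sizes alone or on FPKM with either pseudocount, and 2 to 5 with a library left out. The AKR1B1 share of the family differed by 12.8 percentage points by FPKM and 13.8 by counts. Signs turned only in differences that were not called. The log2 fold change of KEAP1 was 0.013 with library sizes alone and 0.017 on FPKM with either pseudocount (0.0171 and 0.0175), and that of AKR7A2 was -0.0012 with no filter. With a library left out it ranged from -0.053 to 0.095 for AKR7A2, from -0.066 to 0.29 for AKR7L and from -0.15 to 1.17 for ALDH1A1. The cause of these changes was not tested.

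Replicate numbers are shared between the groups, and the deviations of same-numbered libraries had r = 0.07, 0.14 and 0.01 across genes, not all over 0.1, so the numbers were not taken as pairs. Replicates 2 correlated best with each other and parental replicate 1 with resistant replicate 1, but parental replicate 3 and resistant replicate 1 did so with each other (0.09). With a replicate block 3 members were higher and 1 lower. AKR1C3 then had a log2 fold change of 2.73 and an edgeR adjusted p of 0.0545, and all tested genes called numbered 9973 against 8933. AKR1E2, AKR7A3 and AKR7L had 16 to 75 counts per library, which limits their precision. The parental counts of AKR1C2, 8 in replicate 2 (95% Poisson interval 3.45 to 15.8) and 69 in replicate 1 (53.7 to 87.3), differed beyond counting error.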
